A study of Mus musculus with 16 samples.

Results

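The genes described here are 45 components of ciliary trafficking and of the ciliary gate: subunits of the intraflagellar transport (IFT) trains and their motors, the BBSome with the proteins that assemble and recruit it, and the transition zone with its neighbours at the basal body. They were chosen by symbol from the deposited table, which holds 25054 gene entries, and each of the 45 was found on 1 row. The table comes from newborn mouse pups of C57BL/6J background born to Man1a2 heterozygous parents, which carry a deletion of the second exon of Man1a2, a Golgi mannosidase that trims N-glycans. Both parents drank N-acetyl-cysteine (NAC), an antioxidant that supplies cysteine for glutathione, at 1 g/kg body weight by the labels and up to that dose by the methods, or water as placebo, from a week before breeding until delivery. Pups were checked every 8 h and followed for 24 h, and lung and liver were taken from those that died and from those killed alive at the end. In each tissue and treatment, 4 pup groups were sequenced, 2 of them from live pups (WT and heterozygous) and 2 from dead pups (heterozygous and null). RNA of 3 experiments was pooled for each library, and of 2 for dead heterozygous pups, so that each group, treatment and tissue is 1 library and 16 libraries stand for the whole design. No library was made of live null or of dead WT pups, so survival and genotype cannot be fully told apart.

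The tissue labels did not match the RNA in 9 of the 16 libraries, counting 1 that held RNA of both tissues. Libraries were therefore also grouped by 2 genes that are not among the 45, Sftpc of the alveolar type 2 cell and Alb of the hepatocyte. A lung-content library had at least 1000 counts per 1000000 (CPM) of Sftpc and less than 1000 of Alb, and a liver-content library at least 50000 of Alb. In all, 7 libraries were lung-content, with Sftpc from 4446 to 11758 CPM and Alb from 10.5 to 135 CPM, and 8 were liver-content, with Sftpc of at most 3.10 CPM and Alb from 51003 to 101254 CPM. The library labelled dead null placebo lung held both, at 5553 CPM of Sftpc and 9280 CPM of Alb, and is called mixed. The 7 lung-content libraries are those labelled live WT NAC lung, live heterozygous NAC lung and dead heterozygous placebo lung, and those labelled live WT placebo, live heterozygous placebo, dead heterozygous NAC and dead null placebo liver. The values do not show which label of a contrary library is wrong, the tissue or another, so that treatment and pup group are used below as labelled. Totals ran from 7236865 to 16107749 counts, and Rn45s, a ribosomal RNA entry, took 4.05% to 26.2% of the lung-content and 0.846% to 6.29% of the liver-content libraries. Man1a2 itself, counted over the whole gene and not by exon, had 70.0 CPM in the lung-content library labelled null, within the 41.0 to 121 CPM of the lung-content libraries, and 24.5 and 29.6 CPM in the liver-content libraries labelled null, so that a count over the gene does not check the deletion.

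Cilia are built and kept by trains that run between the ciliary membrane and the axoneme. The IFT-B complex carries cargo such as tubulin outward with the kinesin-2 motor, and the IFT-A complex with the dynein-2 motor brings the trains back and admits membrane proteins. The BBSome is an adaptor that rides on the trains and removes signalling receptors, and the transition zone at the base decides which proteins enter. Primary cilia, single and immotile, occur on mesenchymal, epithelial and bile duct cells, and airway multiciliated cells carry many motile cilia, while hepatocytes lack a cilium.

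All 45 genes were detected in every library, the lowest count being 6. Per kilobase of annotated exon, Ift20, an IFT-B subunit that also sits at the Golgi, was the highest in lung-content libraries with a median of 12.9 CPM per kb. Pcm1, the scaffold of centriolar satellites, followed with 12.5 and Ift43, a small IFT-A subunit, with 11.2, and the median over the 45 genes was 2.09 CPM per kb. At the other end, the BBSome subunit Bbs7 and the chaperonin-like Bbs10 had 0.783 and 0.791. In liver-content libraries Ift20 led again with 15.7 CPM per kb, and Ift140, the IFT-A subunit that ranks 25 in lung content, was second with 9.02. The lowest there was Wdr19, another IFT-A subunit, with 0.166 CPM per kb. The median over the 45 genes of the SD of log2 CPM between libraries was 0.32 in lung content and 0.43 in liver content, and the genes with the widest spread in lung content were Bbs12 (0.94), Bbs10 (0.86), Tctn3 (0.78) and Ttc21b (0.77).

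**Figure D1:**
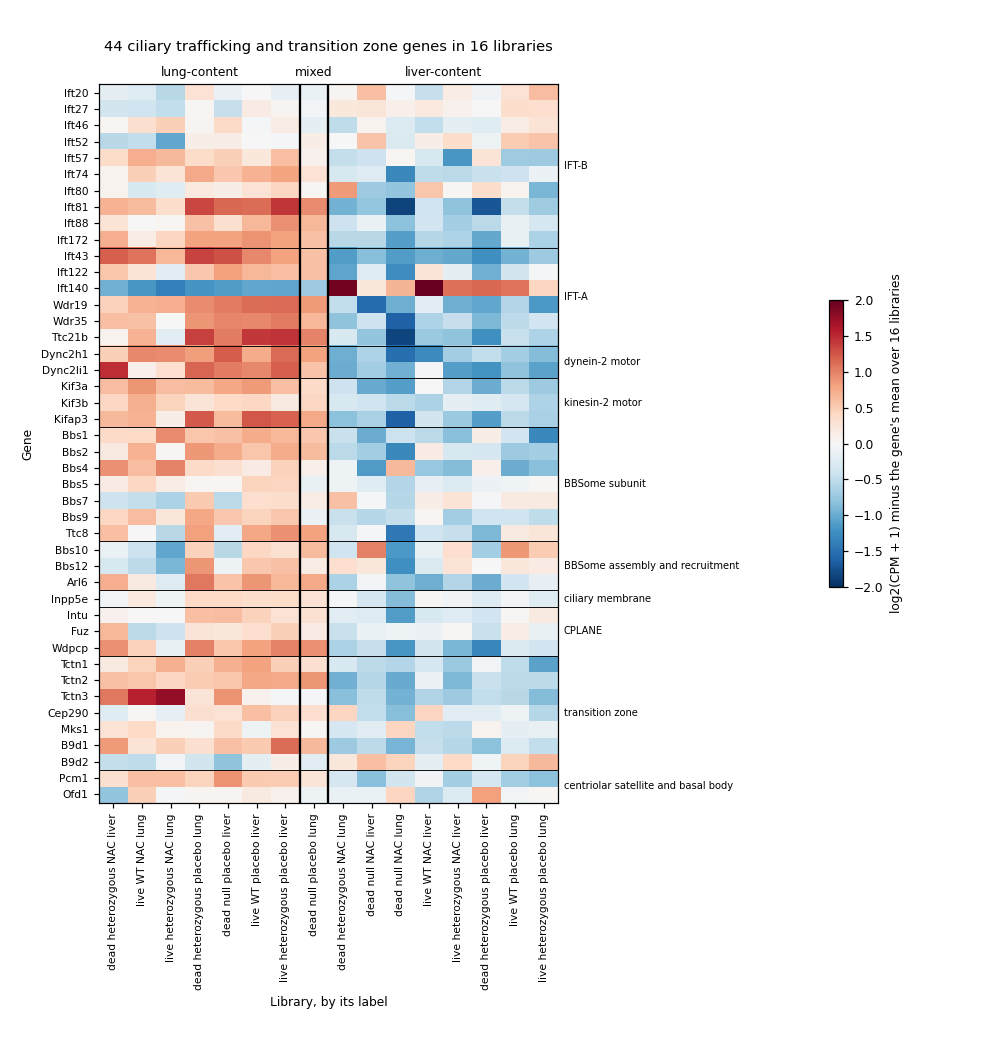
Each row is a gene, 44 of the 45, grouped by complex, and each column a library named by its label and ordered by marker content. Colour gives log2(CPM + 1) minus the mean of that gene over the 16 libraries, cut at -2 and 2. Most rows are higher in the 7 lung-content than in the 8 liver-content libraries, whereas Ift140 runs the other way, and Tctn3 stands out in the 3 lung-content NAC libraries.

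Many ciliary genes carry X-boxes, sites for RFX transcription factors, near their start. Promoters from 250 bases before to 50 bases after the RefSeq start (GRCm38.p6) were at hand for 40 of the 45 genes, and Dync2li1, Ift122, Ift80, Ift81 and Pcm1 had no entry. The hexamer GTTGCC, 1 arm of the X-box, searched on both strands, lay in 20 of the 40 (50%), in 14.1% of 27025 promoters of the same length over all genes and in 14.9% of those of genes that averaged 1 CPM or more, and in 30.6% of those of 49 other ciliary genes from the lists used below. The longer spelling, GTNNCC and GNNAC with 3 bases between them, of which the hexamer can be the first 6 letters, lay in 11 of the 40 (27.5%), in 5.26% of all promoters, in 6.48% of those of expressed genes and in 24.5% of those of the 49 other ciliary genes, close to the share among the 40. Both spellings were kept after several had been tried, so the shares are a description and were not tested. In 10 of the 40 genes the hexamer lay within the 250 bases before the start. The sequences shown are 30-base windows, 5′ to 3′ on the strand of the gene, for 4 of these genes that the results below describe, with the hexamer in capitals, which reads GGCAAC where it lies on the other strand.
Tctn3, chr19:40612354-40612383, minus strand: aggctcccagcgGTTGCCaggtaacgggaa
Ift140, chr17:25015965-25015994, plus strand: gcgtgttgtgacGGCAACctcgcgcccttg
Bbs7, chr3:36613493-36613522, minus strand: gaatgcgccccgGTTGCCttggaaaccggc
Kif3a, chr11:53567259-53567288, plus strand: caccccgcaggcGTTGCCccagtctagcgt
The hexamer is thus present both in Ift140 and in genes that differed from it in direction between lung and liver content. Of the genes that fell with NAC in lung content, Bbs7 had the hexamer in the 250 bases before its start. Ttc21b, Bbs12, Bbs10, Ift52 and Kifap3 had none there, and Ift81 had no entry.

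Lung-content libraries held more RNA of most of these genes than liver-content libraries. In the comparison of 7 lung-content with 8 liver-content libraries, 32 of the 45 genes were higher in lung content, 4 were lower and 9 were not called, with a call at an adjusted p under 0.05 in edgeR's quasi-likelihood fit, which also held terms for pup group and treatment. Over all 14070 genes tested, 74.1% were called, 34.3% as higher and 39.8% as lower, so that a call by itself is common in this comparison. The median log2 fold change (log2FC) was 1.03 over the 45 genes and -0.11 over all genes. In bulk tissue, fewer cells of a type and less RNA per cell cannot be told apart. In 23 of the 45 genes every lung-content library was above every liver-content library, as in 23.2% of all genes, and in 1 the reverse held, as in 26.6% of all genes.

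The IFT-A complex held both extremes. Ift43 (chromosome 12, 86082541 to 86162459, GRCm38) ran from 13.6 to 22.6 CPM with a median of 18.5 in lung content and from 2.94 to 4.58 with a median of 3.63 in liver content, without overlap, a log2FC of 2.30 ± 0.17 (SE, adjusted p = 2.23e-08). Wdr19 (2.08 ± 0.26), Ttc21b (1.85 ± 0.35), Wdr35 (1.57 ± 0.25) and Ift122 (1.00 ± 0.28), the other subunits of the same particle, were also higher in lung content. Ift122 had 6.41 to 14.3 CPM against 2.67 to 9.35, and its ranges overlapped.

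Ift140 (chromosome 17, 25016085 to 25099495, plus strand), although its protein belongs to this complex, was lower in lung content. It had 12.8, 15.3 and 17.4 CPM as lowest, median and highest value in lung-content libraries, and 40.6, 75.1 and 142 in liver-content libraries. No lung-content library reached the lowest liver-content library, and the log2FC was -2.31 ± 0.23 (adjusted p = 6.48e-07). In the mixed library Ift140 had 20.5 CPM, just above the lung-content range. It was lower in the lung-content library of all 6 pools that had a library of each content, and no annotated exon of another gene overlaps its exons in GENCODE. It was called lower both among libraries whose label and content name the same tissue and among those whose label is contrary.

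Both dynein-2 genes and all 3 kinesin-2 genes were higher in lung content. Dync2li1, the light intermediate chain of the retrograde motor, had 6.49 to 18.5 CPM with a median of 13.2 in lung content and 2.07 to 5.83 with a median of 2.54 in liver content, a log2FC of 2.10 ± 0.30 (adjusted p = 2.57e-05). The heavy chain gene Dync2h1 differed by 1.89 ± 0.19. Of the anterograde motor, the accessory subunit gene Kifap3 differed by 1.66 ± 0.22, Kif3a by 1.46 ± 0.15 and Kif3b by 0.85 ± 0.12, and none of these 5 genes overlapped between the contents.

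IFT-B genes were divided, with 6 of 10 higher in lung content, 2 lower and 2 not called. Ift81, which with Ift74 forms a tubulin-binding module, had 9.47 to 21.2 CPM in lung content and 1.29 to 5.27 in liver content, a log2FC of 2.07 ± 0.30 (adjusted p = 2.44e-05). Ift74 itself (chromosome 4, 94614491 to 94693229) had 8.87, 12.8 and 15.4 CPM as lowest, median and highest value in lung content and 2.87, 6.04 and 7.76 in liver content, a log2FC of 1.01 ± 0.19 (adjusted p = 0.000282). Ift172, the largest IFT-B subunit, had 15.9 to 27.4 against 6.04 to 12.7 CPM, a log2FC of 1.34 ± 0.18 (adjusted p = 1.03e-05). Ift52, a core subunit, and Ift27, a small GTPase of the train, were lower in lung content by the scaling used, at -0.59 ± 0.19 (adjusted p = 0.011) and -0.50 ± 0.16 (adjusted p = 0.0114), and both turned to 0.06 and 0.16 when counts were scaled by library size alone. With the pool as a block Ift27 was not called (-0.41, adjusted p = 0.0569), nor was Ift46 (0.35, adjusted p = 0.0958), which is among the 6 higher genes. Ift20 (-0.35 ± 0.17) and Ift80 (0.06 ± 0.26) were not called.

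Of 7 BBSome subunit genes, 5 were higher in lung content, led by Bbs1 (1.38 ± 0.25) and Bbs4 (1.21 ± 0.29), and the subunit genes Bbs7 (-0.36 ± 0.25) and Ttc8 (0.69 ± 0.34) were not called. Arl6, the small GTPase that recruits the BBSome to membranes, was higher (1.38 ± 0.29, adjusted p = 0.000754). Bbs10 and Bbs12, which encode chaperonin-like proteins that assemble the BBSome, were not called, at -0.44 ± 0.50 and -0.16 ± 0.39. Bbs12 ran from 0.975 to 5.85 CPM in lung content and from 0.594 to 3.69 in liver content, so that the ranges overlapped over most of their width.

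Inpp5e, a phosphoinositide phosphatase of the ciliary membrane, was higher by 0.41 ± 0.15. In the CPLANE group, which loads IFT-A onto the base of the cilium, Wdpcp was higher by 1.73 ± 0.32 and Intu by 0.55 ± 0.20, and Fuz (0.35 ± 0.24) was not called. With the pool as a block, neither Inpp5e (0.32, adjusted p = 0.0882) nor Intu (0.47, adjusted p = 0.0591) was called.

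In the transition zone, 5 of 7 genes were higher in lung content, 1 was lower and 1 was not called. All 3 tectonic genes were higher, Tctn3 by 1.86 ± 0.27, Tctn2 by 1.40 ± 0.19 and Tctn1 by 1.16 ± 0.18. The B9 domain genes went apart, since B9d1 was higher by 1.79 ± 0.27 and Mks1 by 0.49 ± 0.21, while B9d2 was lower (-0.75 ± 0.20, adjusted p = 0.00384). Mks1 was not called with the pool as a block (0.55, adjusted p = 0.06). B9d2 had 3.01 to 6.68 CPM in lung content and 5.18 to 9.93 in liver content, and was lower in the lung-content library of all 6 pools with both contents. Cep290, which anchors the gate to the microtubules, was not called at 0.35 ± 0.24. Pcm1 was higher by 1.10 ± 0.15, and Ofd1, a protein of the distal centriole and of satellites, was not called at -0.05 ± 0.24.

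**Figure D2:**
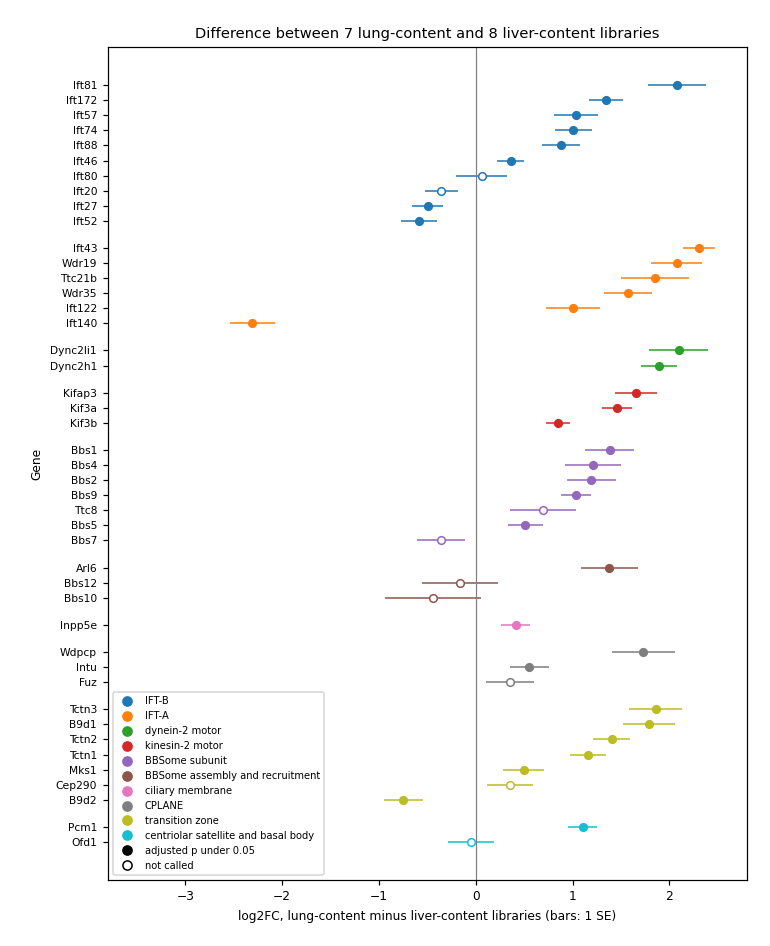
Points give the log2FC of lung-content minus liver-content libraries for each gene, with bars of 1 SE, coloured by complex. Filled points have an adjusted p under 0.05. Ift43 lies farthest right at 2.30 and Ift140 farthest left at -2.31, within the same complex.

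The cell types that a lung or a liver can hold moved with this comparison as well. Of the multiciliated cell markers, 14 of 16 were found in the table and 12 passed the filter, all of them higher in lung content, and their summed level was 169 to 312 CPM in lung content and 7.47 to 13.5 in liver content. Foxj1, the master regulator of motile cilia, had 36.9 to 51.1 CPM against 0.318 to 1.38, and Mcidas and Sntn were at 0 in all liver-content libraries. Mesenchyme markers summed to 2368 to 3052 CPM against 493.1 to 1618 (8 of 10 called higher, 2 lower), endothelial markers to 1592 to 2145 against 199 to 311 (8 of 8 higher), and cholangiocyte markers to 406 to 754 against 123 to 210 (3 of 6 higher, 1 lower). Proliferation markers summed to 105 to 244 against 771 to 2545 CPM (10 of 10 lower) and erythroid markers to 3923 to 9873 against 6845 to 38823 (6 of 6 tested lower). Macrophage markers summed to 29.1 to 104 against 272 to 717 (6 of 6 lower) and neutrophil markers to 104 to 264 against 2659 to 5083 (8 of 8 lower). Cardiac and skeletal muscle markers ranged from 165 to 485 in lung content and from 8.82 to 904 in liver content (6 of 10 higher, 1 lower). The part of these cell types in the values of the 45 genes was not tested.

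Other genes of the same structures, listed apart from the 45, were counted in the same way. Of 28 other trafficking genes, 26 were tested, 10 were higher in lung content and 3 lower, with a median log2FC of 0.06. Ttc26, an IFT-B gene, and Tulp3, which links IFT-A to membrane cargo, were the highest of them at 2.63 ± 0.23 and 2.34 ± 0.17, and Mkks, the chaperonin-like partner of Bbs10 and Bbs12, was the lowest at -1.21 ± 0.27. Of 33 other transition zone and basal body genes, 31 were tested, 16 were higher and 3 lower, with a median of 0.40. Nphp4, a transition zone gene, led with 2.57 ± 0.31, and Cep89, of the distal appendages, was the lowest at -1.13 ± 0.18. Among ciliary regulators, Foxj1 (5.82 ± 0.21), Trp73 (4.85 ± 0.57), Rfx3 (1.66 ± 0.25) and Rfx5 (0.48 ± 0.15) were higher and Myb was lower (-2.29 ± 0.16) of the 7 tested.

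Scaling by library size alone moved the median of all genes to 0.56 and that of the 45 genes to 1.69, with 37 higher and 1 lower (Ift140). With the pool as a block, libraries labelled with the same pup group and treatment were paired. Whether their lung and liver came from the same pups is not given in the sources used here. Over the 6 pools with both contents 31 were called, 30 of them among the 36, against 71.9% of all genes. Bbs5 (0.51, adjusted p = 0.054) lost its call besides the genes named above, and Ttc8 gained one. With the libraries grouped by their tissue labels in place of their content, none of the 45 was called by edgeR's test, as in 0.0% of all genes, and an unadjusted p under 0.05 was found for none of the 45 and for 5 of 14092 genes.

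Within lung-content libraries, NAC was compared with placebo with pup group as a term. The NAC libraries were those labelled live WT lung, live heterozygous lung and dead heterozygous liver, and the placebo libraries those labelled live WT liver, live heterozygous liver, dead null liver and dead heterozygous lung, so that treatment and labelled tissue moved together in live pups and in the opposite way in dead heterozygous pups. The library labelled dead null placebo liver has no NAC partner, and pup group takes up its level, so that few residual degrees of freedom remain. Tctn3 rose with NAC, 7 genes fell, and 37 were not called. Over all 13971 genes 25.4% were called, 14.7% as higher and 10.7% as lower. The median log2FC was -0.40 over the 45 genes and -0.02 over all genes. Of the 45, 37 had a value below 0 and 8 above, where 48.8% of all genes lay above 0. The 45 genes summed to 561 to 624 CPM in the 3 NAC libraries and to 682 to 694 in the 4 placebo libraries, which did not overlap.

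Tctn3 (chromosome 19, 40596446 to 40612233, minus strand), a tectonic of the transition zone, had 21.0, 24.1 and 14.6 CPM in the NAC libraries of live WT, live heterozygous and dead heterozygous pups. The placebo libraries of the same pup groups had 6.94, 6.25 and 7.88, and that of dead null pups had 12.9. Every NAC library was above every placebo library, and the log2FC was 1.49 ± 0.24 (adjusted p = 0.00481). In the 3 pup groups in turn the difference in log2 was 1.60, 1.95 and 0.88. The mixed library, labelled dead null placebo lung, had 6.27 CPM.

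Bbs12 had 1.60, 0.975 and 1.98 CPM in the NAC libraries, in the same order of pup groups, against 4.40, 4.60 and 5.85 with placebo and 2.45 in the dead null placebo library. The groups did not overlap, and the gene fell by 1.67 ± 0.34 on the log2 scale (adjusted p = 0.0108). An exon of Bbs12 overlaps one of Cetn4 on the other strand and one of Gm43439 on its own, and how reads of overlapping genes were divided is not given in the sources used here. Bbs10, its partner in BBSome assembly, had 1.78, 0.836 and 2.41 CPM with NAC against 4.03, 3.64 and 4.15, a log2FC of -1.24 ± 0.38 (adjusted p = 0.0435), with the dead null placebo library lower than 2 of the NAC libraries at 1.56. Bbs7, a subunit of the core that these proteins assemble, had 4.0, 3.48 and 4.22 CPM against 7.73, 7.81 and 8.90 (-1.04 ± 0.25, adjusted p = 0.0194), and again the dead null placebo library lay inside the NAC range at 3.79.

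Ttc21b, the IFT-A subunit that takes part in trafficking of signalling receptors, had 8.26, 3.90 and 5.0 CPM with NAC and 14.2, 14.6 and 13.7 with placebo in the same pup groups. The dead null placebo library had 10.6, so that no NAC library reached a placebo library, and the log2FC was -1.32 ± 0.26 (adjusted p = 0.00954). Ift81 fell by 0.75 ± 0.20 (adjusted p = 0.0271), with 11.8, 9.47 and 12.4 CPM against 16.8, 21.2, 19.8 and, in dead null pups, 17.3. Ift52 fell by 0.75 ± 0.19 (adjusted p = 0.0229), with 14.1, 9.33 and 13.4 CPM against 20.4, 19.9, 22 and 22.4. Kifap3 fell by 0.74 ± 0.18 (adjusted p = 0.021), with 21.5, 14.1 and 20.8 CPM against 31.9, 30.7, 31.8 and 20.7, so that its groups overlapped through the dead null library.

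Other genes that the study measured by PCR or named were not called here. Ift74 had 12.1, 10.4 and 8.87 CPM against 14.3, 15.4, 14.9 and 12.8, every NAC library below every placebo library, with a log2FC of -0.49 ± 0.20 (adjusted p = 0.0981). Ift43 (-0.04 ± 0.17), Ift172 (-0.40 ± 0.19), Ift122 (-0.41 ± 0.23) and Dync2li1 (-0.48 ± 0.28) were likewise not called. By pup group, 22 of the 45 genes were lower with NAC in all 3 groups that have both treatments and 4 were higher in all 3, namely Tctn3, Bbs4, Kif3b and Ift57. In live heterozygous and dead heterozygous pups Ift57 was nearly equal, at 0.0438 and 0.0023 in log2. The share of all genes with the same direction in all 3 groups was not counted. In 14 of the 45 every NAC library was below every placebo library, as in 15.2% of all genes, and in 3 every NAC library was above, as in 14.6% of all genes.

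**Figure D3:**
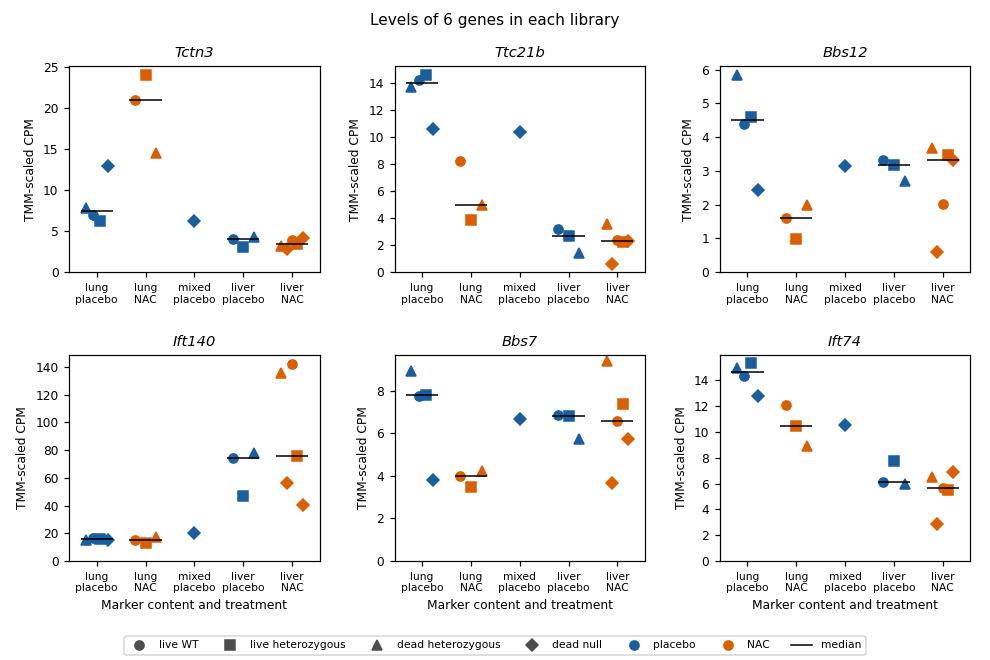
Each point is 1 library at its TMM-scaled CPM on a linear axis from 0, placed by marker content and treatment, with its shape giving the pup group, its colour the treatment and lines at the medians. The 3 lung-content NAC libraries sit between 14.6 and 24.1 CPM of Tctn3, above the placebo libraries at 6.25 to 12.9, and between 3.90 and 8.26 CPM of Ttc21b, below the placebo libraries.

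Among the marker lists, liver markers summed to 61.5 to 233 CPM in lung-content NAC libraries and to 22.4 to 231 with placebo, with 4 of 11 tested called higher, and neutrophil markers to 197 to 264 against 104 to 143, with 5 of 7 tested called higher. Endothelial markers summed to 1926 to 2145 against 1592 to 1953 and proliferation markers to 105 to 244 against 109 to 124. Macrophage markers summed to 29.1 to 92.1 against 53.8 to 104. The ranges of these lists overlapped, as did those of lung, mesenchyme, cholangiocyte, erythroid and muscle markers. Multiciliated cell markers summed to 169 to 229 CPM with NAC and 175 to 312 with placebo, and 1 of 12, Tppp3, was called, as lower (-1.33 ± 0.18). Their part in the fall of the 7 genes was not tested. Of the other trafficking genes, 4 of 26 were called, all lower, namely Ttc30a1 (-1.68 ± 0.35), Dynll1 (-1.01 ± 0.17), Mkks (-0.99 ± 0.22) and Ttc30b (-0.77 ± 0.20). Of the other transition zone and basal body genes, Iqcb1 was higher (0.93 ± 0.23) and Cep41, Invs, Tmem237 and Cc2d2a were lower, from -1.55 ± 0.36 for Cep41 to -0.86 ± 0.22 for Cc2d2a, out of 32. None of 7 ciliary regulators was called.

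With pup group as a term, leaving out either library of a pup group with both treatments takes that group out of the NAC comparison. The count of fallen genes moved with the libraries left out, and so did the share of all genes called. It was 1 (Ttc21b) without the live heterozygous placebo library labelled liver, where 7.81% of all genes were called, and 2 (Bbs12 and Ttc21b) without that labelled live heterozygous NAC lung, where 8.76% were. It was 13 without the dead heterozygous library labelled placebo lung or that labelled NAC liver, where 27.6% and 27.4% were called. With the mixed library counted as lung-content it was 2 (6.98% of all genes), and when scaled by library size alone it was 19 (26.1%), which moved the median of all genes to -0.32. Tctn3 was called as higher in all of these.

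In liver-content libraries, where 5 NAC and 3 placebo libraries were compared in the same way, none of the 44 genes tested was called, as in 0.0% of 12995 genes. At an unadjusted p under 0.05 there were 2 of the 44 and 636 of all genes, and DESeq2 called none of the 44 and 0.231% of all. B9d1 fell under the filter of a mean of 1 CPM, with 0.594 to 1.51 CPM in these libraries. The largest differences were those of Ift140 (0.82 ± 0.21) and Ofd1 (-0.64 ± 0.27), each with an adjusted p of 0.941. Ift140 had 142, 75.9 and 135 CPM with NAC in live WT, live heterozygous and dead heterozygous pups and 56.4 and 40.6 in the libraries labelled dead null, against 74.4, 47.1 and 77.9 with placebo. It was higher with NAC in each of the 3 pup groups with both treatments, while of the libraries of dead null pups 1 lay below and 1 above the lowest placebo value. Ift74 (-0.15 ± 0.37), Dync2li1 (0.42 ± 0.35), Ift43 (-0.08 ± 0.30), Ift122 (0.15 ± 0.39) and Ift172 (0.04 ± 0.30) were not called. Muscle markers summed to 8.82 to 904 CPM in the NAC and to 8.82 to 106 CPM in the placebo libraries.

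**Figure D4:**
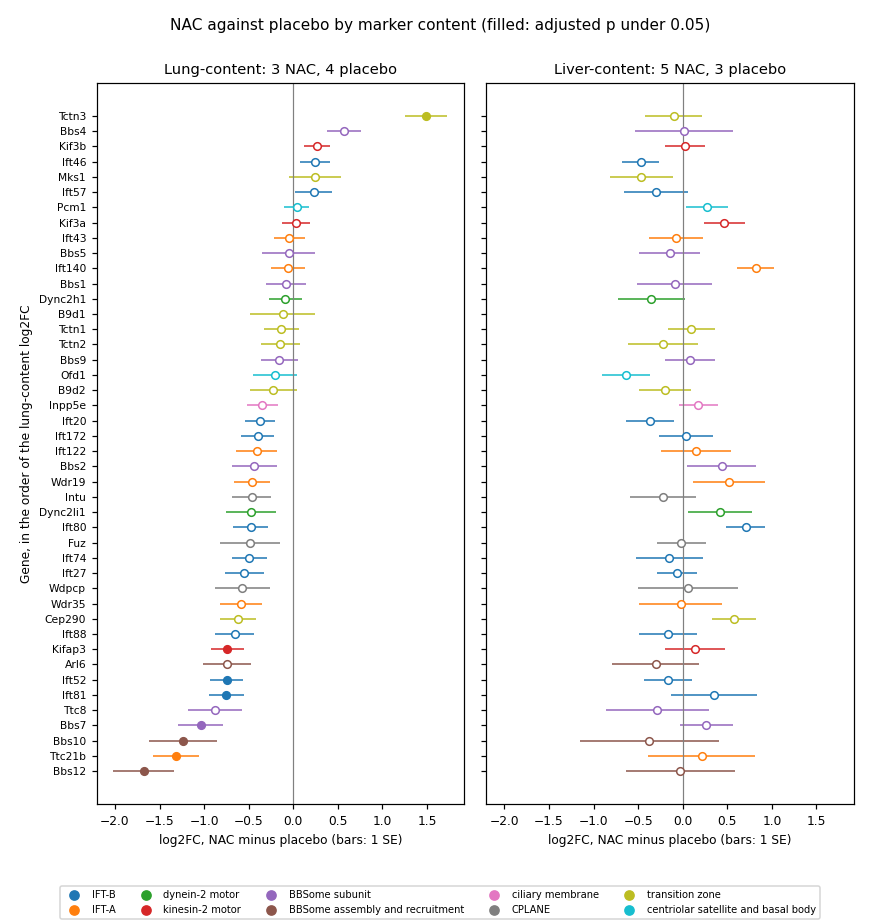
Points give the log2FC of NAC minus placebo with bars of 1 SE in lung-content (left) and liver-content libraries (right), in 1 order of genes. On the left 8 points are filled, that is, called, and on the right none. Tctn3 lies at 1.49 on the left and near 0 on the right.

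The difference of the NAC effect between the contents, tested as an interaction, was called in none of the 45 genes and in 0.0853% of all 14070. It was largest for Tctn3 at 1.58 ± 0.41 (adjusted p = 0.125) and, in the other direction, for Bbs12 at -1.68 ± 0.77 (adjusted p = 0.296). The values of Ift74 (-0.35 ± 0.45), Dync2li1 (-0.93 ± 0.48), Ift43 (0.03 ± 0.30), Ift122 (-0.58 ± 0.50) and Ift172 (-0.44 ± 0.37) were smaller. An unadjusted p under 0.05 was found for 7 of the 45 and 2495 of all genes, and DESeq2's test called Tctn3 as higher and Ift80 as lower among 3.90% of all genes. An effect called in lung content and not in liver content is thus not shown to differ between them for these genes by edgeR's test.

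Dead and live pups were compared with treatment as a term. Live pups were taken at 24 h and dead pups before that, null pups soon after birth by the study. Survival and age at harvest can therefore not be told apart. In lung-content libraries, none of the 45 genes was called, as in 0.0% of all 13971, with an unadjusted p under 0.05 for 1 of the 45 and 504 of all genes, and DESeq2 called none of the 45 and 0.136% of all. The largest differences were 0.57 ± 0.27 for Dync2li1 and -0.49 ± 0.28 for B9d2, and the adjusted p of every one was 0.999. Dync2li1 had 18.5, 14.7 and 13.2 CPM in libraries of dead pups and 6.49, 12.6, 7.80 and 15.1 in those of live pups, which overlapped. Without the dead heterozygous NAC library labelled liver its difference was 0.0143. Values were -0.19 ± 0.17 for Ift74, 0.40 ± 0.16 for Ift43, 0.25 ± 0.20 for Ift122 and 0.14 ± 0.16 for Ift172.

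In liver-content libraries none of 44 was called between dead and live pups, as in 0.0% of 12995, with an unadjusted p under 0.05 for 5 of the 44 and 697 of all genes, and DESeq2 called none of the 44 and 0.354% of all. The largest differences were 1.05 ± 0.43 for Bbs4 and -0.97 ± 0.40 for Ift81, each at an adjusted p of 0.782, and those of the genes named throughout ran from -0.97 ± 0.32 for Ift122 and -0.46 ± 0.36 for Dync2li1 over -0.34 ± 0.26 for Ift172 and -0.19 ± 0.26 for Ift43 to -0.10 ± 0.31 for Ift74. Bbs4 had 6.87, 12.3, 8.04 and 2.86 CPM in dead pups and 3.26, 3.72, 3.98 and 3.64 in live pups, so that the dead null NAC library labelled liver lay below all live pups and the other 3 above them. With heterozygous pups only, 2 against 2 libraries, 6 genes were called (Bbs10, Bbs4, Ift122, Ift140, Ift57 and Ift80), 4 as higher and 2 as lower, as in 14.8% of all genes. The fit of heterozygous pups leaves few residual degrees of freedom.

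Live heterozygous and live WT pups, 2 libraries of each per content, were compared with treatment as a term. Such a fit leaves few residual degrees of freedom, so a gene that was not called is not shown to be unchanged. None of the 45 genes was called in lung content, as in 0.229% of 13955 genes, where none had an unadjusted p under 0.05 and DESeq2 called 0.1% of all and none of the 45. The largest values were 0.52 ± 0.38 for B9d1 and -0.46 ± 0.46 for Bbs10, and Ift74 was at -0.05 ± 0.24, Ift43 at -0.31 ± 0.23, Ift122 at -0.29 ± 0.26, Ift172 at 0.08 ± 0.22 and Dync2li1 at 0.25 ± 0.26. In liver content none of 44 was called, as in 0.0% of 12947 genes. Unadjusted p-values under 0.05 were found for 4 of the 44 and 1684 of all genes there, and DESeq2 called 0.942% of all and none of the 44. Wdr19 (-0.96 ± 0.43) and Ift20 (0.47 ± 0.17) were the extremes, beside Dync2li1 (-0.89 ± 0.42), Ift172 (-0.31 ± 0.24), Ift122 (-0.07 ± 0.31), Ift43 (0.10 ± 0.34) and Ift74 (0.15 ± 0.28).

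Taken by their labels, the 8 pairs of a NAC and a placebo library compare, in each pair, libraries of different marker content. Such a pair has no replicate check, and edgeR's exact test with an assumed coefficient of variation of 0.2 compares 2 libraries, not the conditions. A gene was counted where the adjusted p was under 0.05 and the log2FC was 1 or more in size. The NAC library was the lung-content one in 3 pairs. In live WT lung, 18 of the 45 genes were higher and 4 lower, where 53.8% of all genes were counted, 25.9% as higher and 28.0% as lower. In live heterozygous lung 16 were higher and 5 lower, against 58.1% of all genes, 27.4% higher and 30.7% lower. In dead heterozygous liver 18 were higher and 2 lower, against 49.4%, 24.2% higher and 25.2% lower.

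The NAC library was the liver-content one in the other 5 pairs, and fewer of the 45 genes were counted as higher than as lower in each. In live WT liver 1 was higher and 18 lower, against 47.7% of all genes, 24.3% higher and 23.3% lower. In live heterozygous liver 1 was higher and 25 lower, against 47.9%, 24.7% higher and 23.2% lower. In dead heterozygous lung 1 was higher and 23 lower, against 48.9%, 25.0% higher and 23.9% lower. In dead null liver 3 were higher and 22 lower, against 53.3%, 28.2% higher and 25.1% lower, and in dead null lung, whose placebo library is the mixed one, 1 was higher and 24 lower, against 43.2%, 21.1% higher and 22.1% lower. Median log2FC over the 45 genes were 0.82, 0.47 and 0.83 in the first 3 pairs and -0.88, -1.21, -1.11, -1.0 and -1.37 in the other 5.

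Ift140 ran against the median of the 45 genes in every labelled pair. Its log2FC was -2.32 in live WT lung, -1.88 in live heterozygous lung, -2.16 for the liver pair of dead heterozygous pups, and 3.12, 2.23, 3.19, 1.41 and 1.46 in live WT liver, live heterozygous liver, dead heterozygous lung, dead null liver and dead null lung. Ift74 took the opposite signs, at 0.98, 0.43 and 0.57 and then -1.34, -1.48, -1.19, -0.89 and -1.87. Dync2li1 spanned the widest range of the genes named throughout, from 3.16 in dead heterozygous liver to -2.73 in live heterozygous liver. Ift43 ran from 2.77 to -2.79, Ift172 from 1.90 to -1.85 and Ift122 from 1.77 to -2.16.

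In the pairs whose NAC library is lung-content, the 4 highest genes were Tctn3 (2.37), Ift43, Bbs4 and Dync2h1 in live WT lung, Tctn3 (2.95), Bbs1, Wdr19 and Bbs4 in live heterozygous lung, and Wdpcp (3.34), Dync2li1, Ift81 and Ift43 in dead heterozygous liver. Those counted as lowest were Ift140, Bbs10 (-1.72), B9d2 and Ift52 in live WT lung, Bbs10 (-2.36), Ift140, Ift52 and Bbs12 (-1.69) in live heterozygous lung, and Ift140 and Ofd1 (-1.73) in dead heterozygous liver. Ift140 is the gene common to all 3 lists of the lowest.

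In the other pairs the lists changed sides. The 4 lowest genes were Ttc21b (-2.56), Arl6, Dync2h1 and Ift43 in live WT liver, Dync2li1, Ttc21b (-2.68), Wdpcp and Wdr19 in live heterozygous liver, and Ift43, Ift81 (-2.60), Dync2li1 and Kifap3 in dead heterozygous lung. In dead null pups they were Wdr19 (-3.46), Ift43, Ttc21b and Ift81 in the pair labelled liver and Ttc21b (-4.10), Ift81, Wdpcp and Wdr35 in the pair labelled lung. Ift140 was the 1 gene counted as higher in 4 of these 5 pairs, and in dead null liver Bbs10 (2.06) and B9d2 (1.67) stood above it.

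**Figure D5:**
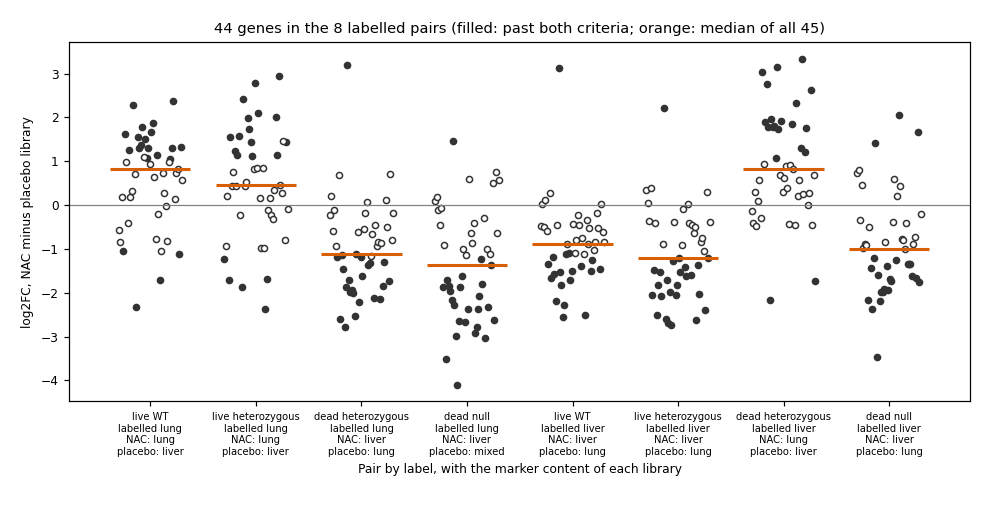
Points give the log2FC of the NAC minus the placebo library for 44 of the 45 genes in the 8 pairs by label, filled where both criteria were passed, with the median of the 45 as an orange line. The content of each library stands under its pair. Medians are above 0 in the 3 pairs whose NAC library is lung-content and below 0 in the other 5.

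Across the 7 lung-content libraries, the mean of log2(CPM + 1) over the 45 genes was 3.3, 3.49 and 3.50 in the NAC libraries and 3.63 to 3.77 in the placebo libraries. The genes of any kind whose pattern was most like this mean were Eri2 (Pearson's r = 0.9962), Senp8 (0.9961), Aifm1 (0.9958), Nagk (0.9949) and Rfc2 (0.9948), as a description over 7 libraries that share their treatment split. None of these encodes a known part of the cilium. Eri2, a predicted exonuclease gene, had 2.93 to 4.48 CPM in the NAC and 5.57 to 6.68 CPM in the placebo libraries.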

How the data were processed

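Lung and liver of newborn pups were sequenced as polyadenylated RNA (TruSeq stranded mRNA kit), 1 library for each pup group, treatment and tissue. The authors aligned reads to GRCm38 with the Omicsoft aligner and took uniquely mapped reads, and the deposited values are estimated counts per gene, with 6.28% to 7.98% of them not whole per library. They were rounded to whole numbers here, although the tests had been planned for whole counts. The submitters' notes name R 4.0.3 and edgeR 3.30.3. How reads over overlapping genes were divided, and whether strand was used, is not given in the sources used here, and 11 of the 45 genes share an exon position with another annotated gene. Of 25054 entries, 5613 were at 0 in all libraries. Totals were 7236865 to 11808823 in lung-content and 14115802 to 16107749 in liver-content libraries, and no 2 libraries of the same content agreed within sampling noise (chi-square per degree of freedom of at least 12.8).

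Groups were taken from the labels, and marker content from unscaled CPM of Sftpc and Alb. Content groups are not the study's groups. Levels are CPM scaled by TMM (trimmed mean of M values) over the 16 libraries. Comparisons by content used the quasi-likelihood test of edgeR 4.0.16 in R 4.3.3 on genes averaging 1 CPM or more over the libraries compared, with Benjamini-Hochberg adjustment over all of them and a call at an adjusted p under 0.05. Errors are the absolute log2FC divided by the square root of F, and fold changes carry a prior count of 0.125. Labelled pairs used the exact test with a coefficient of variation of 0.2 (dispersion 0.04). Libraries are single pools, so p-values measure the spread between pools that differ in pup group and label. The tests were tried on simulated counts with 200 genes changed 4-fold. In the comparison of lung with liver content 200 were recovered, and in the exact test 181 with 8 others among 14160 genes.

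The genes named are Ift74, Dync2li1, Ift43, Ift122 and Ift172 in each comparison, in lung against liver content the 3 with the largest difference each way and all that were not called or lower, and elsewhere those called, or the 4 largest each way where over 8 were, or the largest each way where none was. The values of 1 of the 45 genes, which stays in all counts and medians, and 1 sequence are not reported here. Genes that were named beyond this rule, and other members named for their module, were chosen after their values were seen. Genes most like the 45 were the 5 with the highest Pearson r. The members and lists were chosen with earlier results of these data known. Alternatives were DESeq2 1.42.0 (size factors and test), library size alone, no filter, leaving out each library, tissue as labelled, the pool as a block, the mixed library as lung and a coefficient of variation of 0.4. Comparisons of libraries with label and content alike, or different, and of live pups only were added after the data were seen.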

Additional observations from a re-analysis of the deposited data

Results flagged for a closer look

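In 3 of 92 sets of libraries, 1 library stood apart from the rest by Dixon's ratio, and chance passes about 1 in 20. Dixon's ratio is the gap to the nearest neighbour over the whole range. Each of the 3 sets was a gene in 1 marker content. Ift74 in liver content was lowest in the library labelled dead null NAC lung, at 2.87 CPM (ratio 0.538). Dync2li1 and Bbs9 in liver content were highest in the library labelled live WT NAC liver, at 5.83 CPM (ratio 0.662) and 7.77 CPM (ratio 0.655).

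By label, the median log2FC of the 45 genes with NAC had opposite signs between pup groups. In pairs labelled lung, the mean of the 2 live groups exceeded that of the 2 dead groups by 1.88. In pairs labelled liver, dead heterozygous pups exceeded the mean of the 3 other groups by 1.86. These differences were not tested, and the marker content of the pairs changes sides in the same way.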

How the results depend on the processing

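For lung against liver content, scaling by library size alone left 1 of the 45 genes lower and gave Bbs10 0.23, Bbs12 0.49, Bbs7 0.29, Ift20 0.30, Ift27 0.16, Ift52 0.062 and Ofd1 0.60, which all turned, because the median of all genes moved to 0.56. Ofd1 turned to 0.0411 with DESeq2 size factors, to 0.0415 with DESeq2's test and to 0.0249 with the pool as a block, where Ift80 was -0.10. With tissue as labelled, 0 were higher and 0 lower, with B9d2 0.19, Cep290 -0.13, Dync2li1 -0.57, Fuz -0.35, Ift122 -0.42, Ift140 0.0465, Ift172 -0.17, Ift20 0.0708, Ift27 0.0273, Ift43 -0.0355, Ift74 -0.0496, Ift80 -0.27, Ofd1 0.16 and Ttc8 -0.18. With label and content alike only, where 49.1% of all genes were called, 17 were higher and 1 lower, with Fuz -0.0632, Ift80 -0.46 and Ofd1 0.20, and with different ones only (64.0% of all genes) 2 were lower, with Bbs10 0.10 and Bbs12 0.44. An absolute log2FC of at least 1 left 1 lower. For NAC in lung content, the count of lower genes was 19 by library size alone, 2 with the mixed library, 4 at an absolute log2FC of at least 1 and 14 in live pups only (30.2% of all genes called), where Ift43 was 0.0034, and 2 were higher without a pup group term. Counts at an absolute log2FC of at least 1, and without a pup group term, are given without the share of all genes. In liver content Ift172 was -0.11 without that term and -0.21 in live pups only. Dead against live heterozygous pups in liver content gave 4 higher and 2 lower, with Dync2li1 0.0038. By library size alone, heterozygous against WT pups gave Dync2li1 -0.0434 and Ift172 -0.22 in lung content and Ift122 0.0117 in liver content, and the interaction gave Ift43 -0.26. DESeq2's test of the interaction called 1 higher and 1 lower. Except where a construction is named, the cause was not tested.

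For labelled pairs, library size alone gave 28 higher and 1 lower in live WT lung, 41 lower in live WT liver, 3 lower in live heterozygous lung (Ift122 0.0513), 35 lower in dead heterozygous lung, 29 higher in dead heterozygous liver and 0 higher in dead null lung. The median log2FC of all genes was then 0.59 in live WT lung, -1.05 in live WT liver and 0.16 in live heterozygous lung. It was -0.65 in dead heterozygous lung, 0.58 in dead heterozygous liver and -0.60 in dead null lung. Counts by this scaling are thus not a result about the genes described here alone. Counts for labelled pairs under any alternative scaling or coefficient of variation are given without the share of all genes. DESeq2 size factors gave 2 lower in live WT lung. A coefficient of variation of 0.4 gave 2 higher and 1 lower in live WT lung, 2 lower in live WT liver, 3 higher and 0 lower in live heterozygous lung, 5 lower in live heterozygous liver, 3 lower in dead heterozygous lung, 4 higher and 0 lower in dead heterozygous liver, 0 higher and 7 lower in dead null lung, and 0 higher and 2 lower in dead null liver.

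Leaving out each library in turn, the count of genes lower with NAC in lung content ran from 1 to 13 and Ift43 from -0.15 to 0.0142. In fits of NAC, leaving out either library of a pup group with both treatments took that group out of the comparison. For NAC in liver content Ift122 ran from -0.15 to 0.33, Ift172 from -0.21 to 0.29, Ift43 from -0.19 to 0.0717 and Ift74 from -0.29 to 0.0269. For dead against live pups, Ift74 ran from -0.21 to 0.0685 in liver content, and Ift172 from -0.0596 to 0.21 and Dync2li1 from 0.0143 to 0.75 in lung content. For the interaction, Ift43 ran from -0.12 to 0.14, with 0 to 1 higher and 0 to 2 lower. For lung against liver content, Bbs12 ran from -0.39 to 0.0877, Ift80 from -0.16 to 0.21 and Ofd1 from -0.26 to 0.15. Leaving out a library was not run for heterozygous against WT pups, where no residual degree of freedom would remain. Lung and liver content were paired by pool. For treatment, pup group as a term set NAC against placebo libraries of the same pup group. No further pairing for treatment, and none for survival or genotype, was possible. Each group, treatment and tissue is 1 library and the labels carry no replicate numbers. Of the other values, 261 counts and 1205 values of single genes kept their direction and side of the threshold, 65 values of single genes lost their call and 33 gained one with the direction unchanged.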
